A study of Homo sapiens with 12 samples.

Results

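GATA2, GATA1 and the proteins that join them in erythroid transcription complexes were examined by RNA-seq in HUDEP-2, a line of immortalised human erythroid precursors that was made from umbilical cord blood. The set was fixed by name: GATA1, GATA2, ZFPM1, TAL1, LMO2, LDB1, LYL1, RUNX1 and GFI1B. Each of the 9 symbols matched 1 row of a count table of 54628 genes, and all 9 were among the 15492 genes that passed the filter on low counts. The data covered 12 libraries in 4 groups of 3 replicates, namely sgControl PBS, sgControl SCF, sgEGR1 PBS and sgEGR1 SCF. All cells carried dCas9-KRAB, a repressor without nuclease activity that a guide RNA steers to DNA, delivered by lentivirus and kept as GFP-sorted pools. All groups were grown in SCF, erythropoietin, dexamethasone and doxycycline and then starved for 5 h in medium without them, after which cells received PBS or 50 ng/mL of SCF, the ligand of the Kit receptor, for 1 h. The sgControl guide is a scrambled control, and the sgEGR1 guide points to a regulatory element of EGR1. The methods call the replicates biological without saying how the cultures were kept apart, so p-values measure the spread between these libraries, part of which may be technical.

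GATA1 and GATA2 are zinc finger proteins that bind the same short DNA motif. In the erythroid lineage GATA2 acts in progenitors and GATA1 takes over as cells mature, often by replacing GATA2 at the same sites, an exchange known as the GATA switch. ZFPM1 (FOG1) binds the amino-terminal zinc finger of GATA factors and is needed for much of the repression by GATA1. TAL1 and LYL1 are related helix-loop-helix proteins that pair with E proteins at E-box motifs. LMO2 bridges such a pair to GATA1 or GATA2, and LDB1 binds LMO2 and lets distant complexes touch, which holds enhancers near promoters. RUNX1 is the founding haematopoietic Runt factor, and GFI1B is a repressor of erythroid and megakaryocytic cells that recruits the LSD1 and CoREST histone demethylase complex.

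The sequences below set the targeting guide beside the promoters of GATA2, the gene with the largest response to SCF, and TAL1, the gene whose promoter held the most motif matches. Promoter windows are the 250 bases before the start of transcription, from RefSeq (GRCh38.p14), on the strand of the gene, and capitals mark motif matches.
sgEGR1 guide: ggatgacagcgatagaaccc
GATA2 promoter: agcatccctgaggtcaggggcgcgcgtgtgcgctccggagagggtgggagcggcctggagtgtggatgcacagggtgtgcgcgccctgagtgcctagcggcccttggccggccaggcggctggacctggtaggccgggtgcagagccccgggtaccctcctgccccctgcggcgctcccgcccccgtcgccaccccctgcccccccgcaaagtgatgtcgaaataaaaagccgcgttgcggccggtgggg
TAL1 promoter: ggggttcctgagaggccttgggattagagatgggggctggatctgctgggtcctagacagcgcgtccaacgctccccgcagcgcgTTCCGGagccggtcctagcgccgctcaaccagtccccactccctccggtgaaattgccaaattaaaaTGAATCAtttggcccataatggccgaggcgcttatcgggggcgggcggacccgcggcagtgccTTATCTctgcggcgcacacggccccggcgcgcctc
The guide matched the hg38 genome exactly at 1 place, chr5:138464830-138464849 on the plus strand, next to a CGG motif and at position -640 from the annotated start of EGR1. The study places the targeted element at another distance from the transcription start site of EGR1. The sgControl guide had no exact match. The GATA2 window lies at chr3:128493202-128493451 and the TAL1 window at chr1:47232336-47232585, both on the minus strand.

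Motifs were searched on both strands, with N for any base. The AP-1 motif was TGANTCA. The EGR motif, to which EGR1 binds, was GCGTGGG. The GATA motif was AGATAA, and TGATAA was counted as well. The ETS motif was CCGGAA. The TAL1 window held a GATA match 35 bases, an AP-1 match 98 bases and an ETS match 165 bases before the start. LYL1 held a GATA match 27 bases before the start and RUNX1 an ETS match 104 bases before it. The windows of GATA2, GATA1, ZFPM1, LDB1 and GFI1B held none of these letters, and no window held the EGR motif. Among 27305 windows of the same length, 6.6% held the AP-1 motif, 5.96% the EGR motif, 14.9% the GATA motif and 14.8% the ETS motif. RefSeq starts can lie inside the gene spans given below, which come from GENCODE 44. The windows of LDB1, RUNX1, LYL1 and GFI1B lie within such spans, and those of LYL1, GFI1B and GATA1 hold 250, 95 and 50 bases of annotated exons. No matches overlapped, and LMO2 was not in the promoter table.

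Depth ranged from 23498065 to 32039680 counts per library. Values are given as CPM, counts per 1000000 of the library total after scaling by TMM factors. The erythroid label was checked with 12 markers, all of which were kept, at a summed 26075 to 31319 CPM. Of markers of other cells, none of 7 granulocyte and monocyte genes passed the filter, 1 of 5 lymphoid genes did (PTPRC), and the 4 stem and early progenitor genes summed to 2.79 to 4.58 CPM. As a check of the guide, EGR1 after PBS stood at 5.99 to 10.9 CPM in sgControl and at 0.977 to 2.04 CPM in sgEGR1 libraries. The check was less uniform after SCF. EGR1 stood at 171 to 239 CPM in sgControl SCF and at 40.4 and 57.4 CPM in sgEGR1 SCF replicates 1 and 2, but at 204 CPM in the library labelled sgEGR1 SCF replicate 3, so results that compare the guides are also given without that library. Differences were tested with the quasi-likelihood test of edgeR on all 12 libraries, and genes were called where the p adjusted by Benjamini and Hochberg over all genes tested was below 0.05. Intervals of fold changes are 95% intervals.

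Levels can be compared between genes only per length, here as CPM per kb of the union of annotated exons (GENCODE 44). On this scale GATA1 was the highest of the 9, with a median of 190.4 CPM per kb and a range of 175 to 211 over the 12 libraries. LDB1 followed at 153 (137 to 158) and did not overlap GATA1. LMO2 at 97.8, GFI1B at 77.4, LYL1 at 65.1 and TAL1 at 57.6 came next, and neighbours among these overlapped in range. GATA2 at 27.2 ranged most widely, from 14.0 to 52.8 CPM per kb, and overlapped ZFPM1 at 16.1 (12.6 to 18.5). RUNX1 was lowest at 5.31 CPM per kb (5.01 to 5.77), with no overlap with ZFPM1. Within GATA2 the PBS libraries spanned 14.0 to 22.4 CPM per kb and the SCF libraries 31.9 to 52.8.

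The length used moved part of this order. Per kb of the longest transcript, GFI1B (156), LMO2 (136) and LYL1 (131) lay close to GATA1 (193) and LDB1 (187), and the first 5 genes overlapped in a chain. RUNX1, whose annotated exons include many that its longest transcript lacks, stood at 11.4 CPM per kb and was still last. GATA1 remained first, GATA2 seventh and ZFPM1 eighth.

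**Figure D1:**
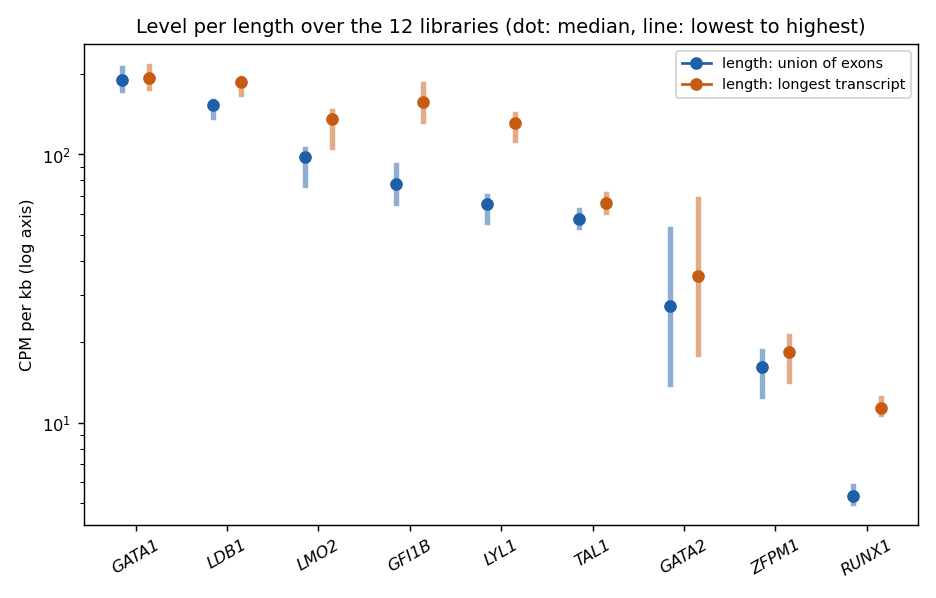
Level of each gene in CPM per kb on a log axis, for 2 definitions of length. Dots are medians and lines run from the lowest to the highest of the 12 libraries. GATA2 spans the widest range, 14.0 to 52.8 CPM per kb of exons, while GATA1 stays between 175 and 211.

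Activation of Kit raised GATA2 and lowered GFI1B. Both were called in sgControl cells, in sgEGR1 cells and in the average over the guides, and the other 7 genes were called in none of these 3 comparisons. The share of all 15492 genes tested that was called was 2.89% in sgControl cells (448 genes), 2.59% in sgEGR1 cells (402 genes) and 9.03% in the average (1399 genes). Over the 9 genes the median log2 fold change was -0.07 in sgControl and -0.04 in sgEGR1 cells, beside -0.01 and 0.00 over all genes.

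GATA2 (ENSG00000179348) lies at chr3:128479427-128493201 on the minus strand (hg38, GENCODE 44, as for the positions of the other genes). In sgControl cells its level was 99.1, 70.8 and 68.7 CPM after PBS and 259, 173 and 157 CPM after SCF in replicates 1, 2 and 3. All 3 SCF libraries exceeded all 3 PBS libraries. GATA2 rose, with means of 79.5 ± 17.0 CPM after PBS and 196 ± 55.1 CPM after SCF (SD, n = 3). The log2 fold change was 1.30 ± 0.215 (SE), at an edgeR adjusted p of 0.00705. This is 2.47-fold with an interval of 1.79 to 3.42.

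In sgEGR1 cells GATA2 stood at 110.3, 76.2 and 79.5 CPM after PBS and at 236, 173 and 179.9 CPM after SCF. The groups again did not overlap. The means were 88.7 ± 18.8 and 196 ± 34.6 CPM (SD, n = 3), and the log2 fold change was 1.15 ± 0.214 (SE, edgeR adjusted p = 0.0147). This is 2.21-fold with an interval of 1.60 to 3.06. The log2 fold change stayed at 0.996 to 1.07 where single libraries decided the call, which edgeR lost without sgEGR1 PBS replicate 2 (adjusted p = 0.0809), sgEGR1 PBS replicate 3 (0.0768) or sgEGR1 SCF replicate 1 (0.0527). With a replicate block the log2 fold change was 1.15 (edgeR adjusted p = 1.92e-07). Averaged over the guides, with 6 libraries a side, the log2 fold change was 1.23 (edgeR adjusted p = 0.00039).

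Compared within replicate numbers, the rise of GATA2 was of similar size throughout. SCF over PBS was 2.62-, 2.45- and 2.28-fold in CPM for replicates 1, 2 and 3 of sgControl and 2.14-, 2.27- and 2.26-fold for those of sgEGR1. With replicates 2 and 3 alone, the log2 fold change was 1.24 in sgControl (edgeR adjusted p = 2.31e-06) and 1.18 in sgEGR1 cells (2.01e-06).

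GATA2-AS1, a long non-coding RNA on the opposite strand, shares 78 bases, or 1.59%, of the exons of GATA2. Use of strand in the counting was not stated, so reads in these bases cannot be assigned with certainty. GATA2-AS1 stood at 12.4 to 14.7 CPM over the 12 libraries, below the lowest value of GATA2.

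**Figure D2:**
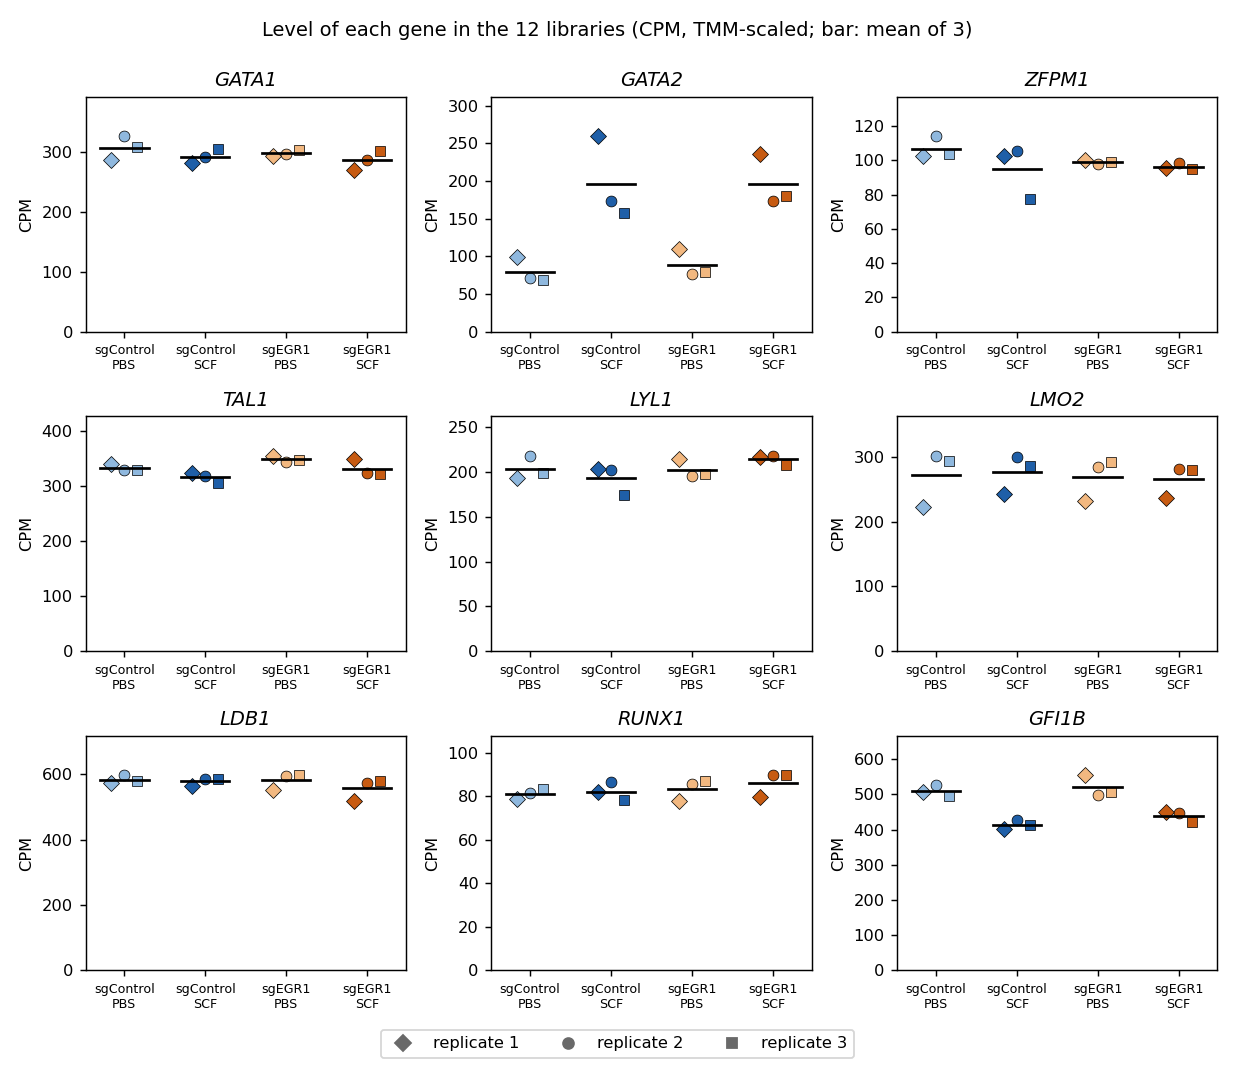
CPM of each of the 9 genes in the 12 libraries, from 0, with 1 point per library, shapes for the replicate number and bars for the mean of 3. GATA2 is higher and GFI1B lower in every SCF library than in any PBS library, and replicate 1 is the highest GATA2 value and the lowest LMO2 value of every group.

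GFI1B (ENSG00000165702, chr9:132944000-132991687, plus strand) moved the other way and by less. In sgControl cells it stood at 508, 526 and 495 CPM after PBS and at 401, 428 and 412 CPM after SCF, with no overlap. The mean was 509.5 ± 15.8 CPM after PBS and 414 ± 13.6 CPM after SCF (SD, n = 3). On the log2 scale GFI1B fell by 0.30 (SE 0.0512, edgeR adjusted p = 0.00868). This is 0.812-fold with an interval of 0.752 to 0.878.

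In sgEGR1 cells the GFI1B levels were 555, 497 and 507 CPM after PBS and 451, 448 and 421 CPM after SCF. These groups did not overlap either, and the log2 fold change was -0.24 ± 0.0512 (SE, edgeR adjusted p = 0.0276). This call was the least stable of those made here. By edgeR it was lost in a fit of the sgEGR1 groups alone (adjusted p = 0.0767) and without sgEGR1 PBS replicate 1 (0.0754) or 3 (0.0694), or without sgEGR1 SCF replicate 1 (0.0585), 2 (0.0823) or 3 (0.123). Averaged over the guides GFI1B fell by 0.27 (log2 scale, edgeR adjusted p = 0.000691), a call that was kept without any single library.

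TSC1, on the opposite strand, shares 349 bases, or 5.72%, of the exons of GFI1B. TSC1 stood at 77.2 to 93.1 CPM in the PBS libraries and at 70.9 to 76.4 CPM in the SCF libraries. The TSC1 ranges did not overlap between the treatments either, at levels below the lowest GFI1B value of 401 CPM, and its part in the fall of GFI1B was not tested.

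GATA1 (ENSG00000102145, chrX:48786540-48794311, plus strand), the partner of GATA2 in the switch, was not called. Its means were 308 ± 20.1 CPM in sgControl PBS, 293 ± 11.6 in sgControl SCF, 298 ± 5.05 in sgEGR1 PBS and 287 ± 15.7 in sgEGR1 SCF (SD, n = 3). The SCF and PBS libraries overlapped within each guide. The average response was 0.957-fold with an interval of 0.902 to 1.02 (edgeR adjusted p = 0.392).

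ZFPM1 (chr16:88453280-88537031, plus strand) averaged 107 ± 6.45 and 95.1 ± 15.4 CPM (SD, n = 3) in sgControl cells after PBS and SCF, and 99.0 ± 1.20 and 96.2 ± 2.00 CPM in sgEGR1 cells. The lower sgControl SCF mean came from replicate 3, at 77.4 CPM beside 102 and 105. The average response was 0.931-fold (interval 0.843 to 1.03, edgeR adjusted p = 0.396).

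TAL1 (chr1:47216290-47232225, minus strand) stayed short of the threshold. It stood at 339, 329 and 328 CPM after PBS and at 322, 317 and 305 CPM after SCF in sgControl cells, without overlap, and at 342 to 355 and 322 to 348 CPM in sgEGR1 cells, with overlap. The average log2 fold change was -0.08 ± 0.0297 (SE, edgeR adjusted p = 0.15), and a fit with a term for replicate 1 called it at the same size (adjusted p = 0.0239). A long non-coding RNA on the opposite strand covers 14.8% of the TAL1 exons and was not analysed here.

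LYL1 (chr19:13099033-13103161, minus strand), the relative of TAL1, had an average response of 1.00-fold (interval 0.933 to 1.08, edgeR adjusted p = 0.988), from 194 to 218 CPM after PBS and 175 to 204 CPM after SCF in sgControl cells, and from 196 to 215 and 208 to 218 CPM in sgEGR1 cells. LMO2 (chr11:33858576-33892076) and LDB1 (chr10:102106489-102120368), both on the minus strand and the bridge of the complex, had average responses of 1.00-fold (interval 0.873 to 1.14, adjusted p = 0.999) and 0.974-fold (0.924 to 1.03, adjusted p = 0.604) by edgeR. RUNX1 (chr21:34787801-36004667, minus strand) stood between 78.1 and 89.9 CPM in all 12 libraries, with an average response of 1.02-fold (interval 0.958 to 1.09, edgeR adjusted p = 0.738). None of these 4 genes separated the SCF from the PBS libraries within a guide.

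**Figure D3:**
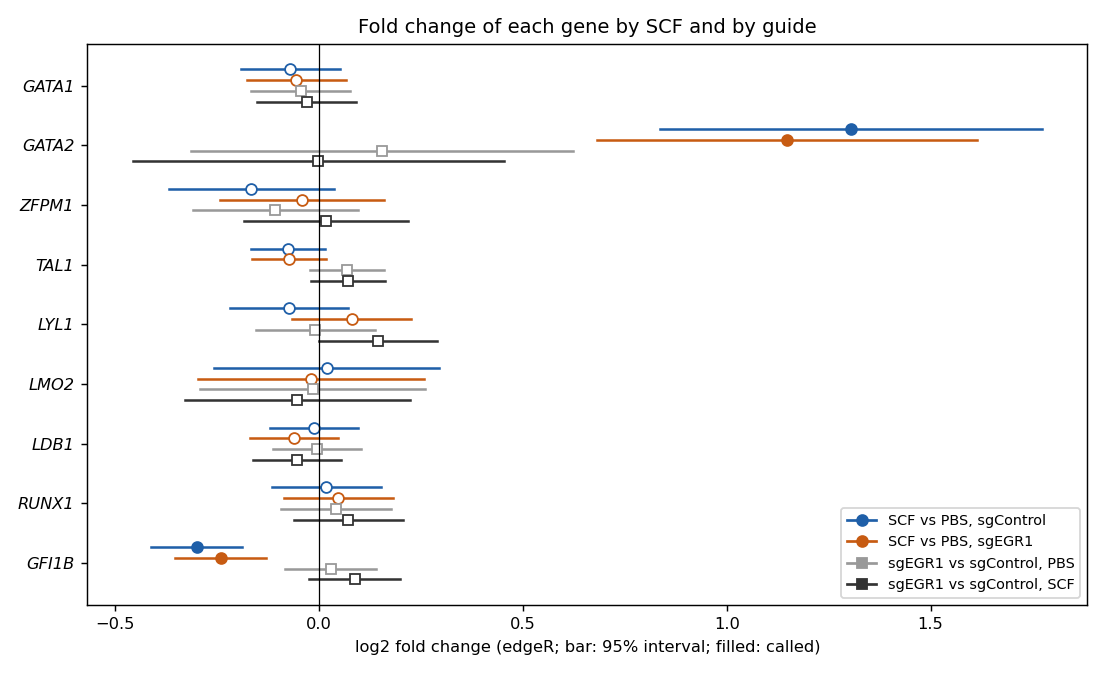
Log2 fold change of each gene for SCF against PBS in each guide (circles) and for sgEGR1 against sgControl in each treatment (squares), by edgeR, with 95% intervals and filled symbols for called genes. Only GATA2, at 1.30 and 1.15, and GFI1B, at -0.30 and -0.24, are filled.

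Interference at EGR1 was set against the same genes to ask whether their levels or their SCF responses depend on it. None of the 9 genes was called between the guides after PBS, after SCF or on average, and none differed in its SCF response. Over all genes edgeR called 0.00% in each of these 4 comparisons, while 715, 361, 805 and 306 of 15492 genes had an unadjusted p under 0.05, and DESeq2 called 20, 5, 28 and 4 genes with none of the 9 among them. A block for the replicate number brought these edgeR counts to 2, 2, 49 and 0, again with none of the 9. The largest log2 differences among the 9 were 0.16 for GATA2 after PBS and 0.14 for LYL1 after SCF. In the edgeR fit without a block EGR1, the target of the guide, was itself called in none of these comparisons. Its PBS levels nevertheless did not overlap between the guides. A lack of calls here therefore does not show that the 9 genes are independent of EGR1.

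The intervals, from the fit without a replicate block, differed in width between genes. For GATA2 sgEGR1 over sgControl was 1.11-fold after PBS (interval 0.805 to 1.54) and 0.999-fold after SCF (0.728 to 1.37), and its SCF response in sgEGR1 cells was 0.897 times that in sgControl cells (0.57 to 1.41). GATA1 was held more tightly, at 0.969-fold after PBS (0.891 to 1.05) and 0.979-fold after SCF (0.9 to 1.06). GFI1B was 1.02-fold after PBS (0.944 to 1.10) and 1.06-fold after SCF (0.983 to 1.15). LYL1 was 1.11-fold after SCF (1.00 to 1.22, unadjusted p = 0.05, edgeR adjusted p = 1), at 175 to 204 CPM in sgControl and 208 to 218 CPM in sgEGR1 libraries, which did not overlap. After PBS the groups of 2 genes did not overlap. TAL1 stood at 328 to 339 CPM in sgControl and 342 to 355 CPM in sgEGR1 libraries. ZFPM1 stood at 102 to 114 and 97.9 to 100.3 CPM. With 3 libraries in each group, the smallest exact two-sided permutation p that 20 arrangements allow is 0.1. Complete separation of 2 groups alone therefore cannot reach the threshold, and some genes can separate through the spread between libraries alone. Whether these genes separated more often than all genes was not tested, and LYL1, TAL1 and ZFPM1 were not called. TAL1 averaged over the treatments was 1.05-fold higher in sgEGR1 cells (interval 1.00 to 1.10, edgeR adjusted p = 0.95). With the replicate block the edgeR adjusted p was 0.369 for GATA2 after PBS, 0.759 for LYL1 after SCF and 0.244 for TAL1 on average.

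In the library labelled sgEGR1 SCF replicate 3 the EGR1 level went against the label. GFI1B stood there at 421 CPM, within the sgControl SCF range of 401 to 428 and below the 451 and 448 CPM of replicates 1 and 2. GATA1, GATA2, ZFPM1, TAL1, LMO2 and LDB1 also lay within their sgControl SCF ranges in this library. LYL1, at 208 CPM, and RUNX1, at 89.7 CPM, lay above theirs, which reached 204 and 86.5 CPM. Levels within the sgControl SCF ranges were not particular to replicate 3. GATA1, GATA2, ZFPM1, LMO2 and LDB1 lay within them in sgEGR1 SCF replicate 2 as well, and GATA2 and ZFPM1 in replicate 1. Without sgEGR1 SCF replicate 3 edgeR called 1 gene after PBS, 2 after SCF, 22 on average and 2 in response over all genes. With the replicate block as well it called 42, 30, 178 and 2. None of the 9 was among them in either fit. The differences after SCF then ran from -0.10 for LMO2 to 0.16 for LYL1 on the log2 scale without the block. The response of GATA2 differed by -0.10 between the guides without the block and by -0.19 with it, in place of -0.16.

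The ratio of GATA2 to GATA1 counts does not depend on the depth or scaling of a library. In sgControl cells it was 0.345, 0.216 and 0.222 after PBS and 0.919, 0.593 and 0.513 after SCF in replicates 1, 2 and 3. In sgEGR1 cells it was 0.375, 0.256 and 0.262 after PBS and 0.87, 0.602 and 0.594 after SCF. Every SCF library lay above every PBS library, and every library had fewer GATA2 than GATA1 counts. The annotated exons of GATA2 are longer, so per kb of exons GATA1 exceeded GATA2 by 8.43- to 14.6-fold in PBS libraries and by 3.44- to 6.16-fold in SCF libraries. The gap was smaller per kb of the longest transcript. There the ratio of GATA2 to GATA1 was 0.0871 to 0.151 in PBS and 0.207 to 0.37 in SCF libraries, beside 0.0683 to 0.119 and 0.162 to 0.29 per kb of exons.

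The mean ratio went from 0.261 ± 0.0727 to 0.675 ± 0.215 in sgControl and from 0.298 ± 0.0671 to 0.689 ± 0.157 in sgEGR1 cells (SD, n = 3). On the log2 scale the differences were 1.36 and 1.21, each with an exact two-sided permutation p of 0.1, the smallest that 3 against 3 libraries allow. Averaged over the guides, with labels permuted within each guide, the difference was 1.28, or 2.44-fold (exact permutation p = 0.005 over 400 arrangements, the smallest possible, and 0.035 adjusted over the 7 ratio comparisons). With replicates 2 and 3 only it was 1.27, and the exact p of 0.0556 was the smallest that 36 arrangements allow. Same-numbered libraries gave ratio changes of 2.66-, 2.74- and 2.31-fold in sgControl and 2.32-, 2.35- and 2.27-fold in sgEGR1.

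Between the guides no test of the ratio passed the threshold. It was 1.15-fold higher in sgEGR1 after PBS (exact permutation p = 0.5) and 1.04-fold higher after SCF (exact permutation p = 0.8). After PBS the sgEGR1 library had the higher ratio in 3 of 3 replicate numbers, and after SCF in 2 of 3. Permuted within replicate numbers, the exact p was 0.25 after PBS, the smallest that 3 pairs allow, 0.75 after SCF and 0.0938 for the average over the treatments, which was 0.535 without the pairing. The SCF response of the ratio in sgEGR1 cells was 0.901 times that in sgControl cells (exact permutation p = 0.665).

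**Figure D4:**
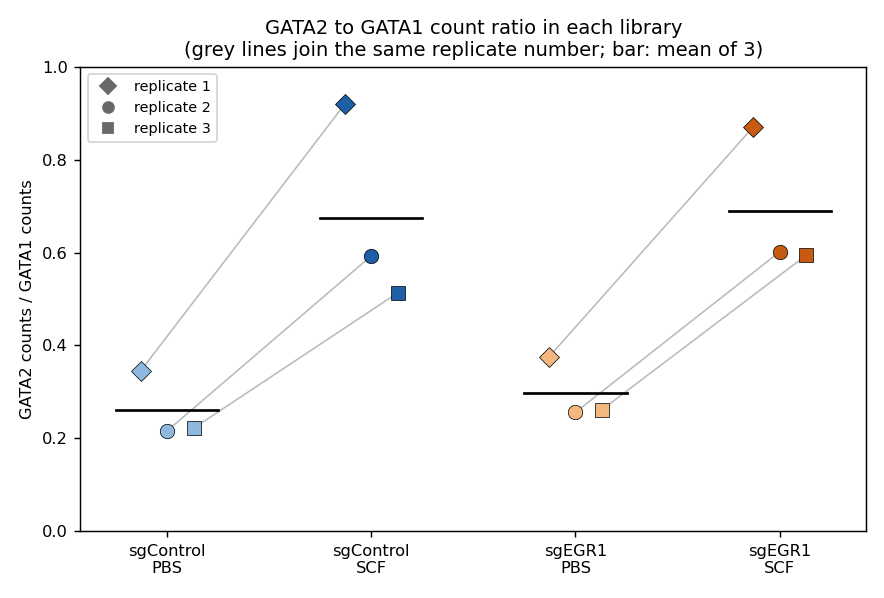
Ratio of GATA2 to GATA1 counts in each library, with bars for the mean of 3 and grey lines that join libraries of the same guide and replicate number. All 6 SCF libraries, at 0.513 to 0.919, lie above all 6 PBS libraries, at 0.216 to 0.375, and replicate 1 is highest in every group.

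Replicate 1 differed from replicates 2 and 3 in several of these genes, in the same direction in all 4 groups. In a fit with a term for replicate 1, edgeR called 4 of the 9 genes, where 26.6% of all genes were called (4116 of 15492). The labels give no date or batch for these numbers. GATA2 was higher in replicate 1, by 1.34- to 1.57-fold over the mean of replicates 2 and 3 of the same group (log2 difference 0.52 ± 0.0374 SE, edgeR adjusted p = 7.91e-07). LMO2 was lower, at 223 to 243 CPM in the 4 replicate 1 libraries and 280.2 to 302 CPM in the other 8, with no overlap (-0.31 ± 0.0292 SE, edgeR adjusted p = 7.13e-06).

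GATA1 (-0.10, edgeR adjusted p = 0.0234) and LDB1 (-0.09, adjusted p = 0.0188) were slightly lower in replicate 1 of all 4 groups. By edgeR the GATA1 call was lost without replicate 1 of sgControl PBS (adjusted p = 0.109), sgControl SCF (0.0583) or sgEGR1 SCF (0.0893), and the LDB1 call without replicate 1 of sgEGR1 PBS (0.058) or sgEGR1 SCF (0.108). TAL1 was higher in replicate 1 of all 4 groups, by 1.03- to 1.08-fold, and was not called (edgeR adjusted p = 0.0563). RUNX1 was lower in replicate 1 of 3 of 4 groups (edgeR adjusted p = 0.0528).

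Some markers of erythroid and of other blood cells moved with the replicate number. Of the erythroid markers, HBA1 stood at 1446 to 1759 CPM in replicate 1 and at 1770 to 2214 CPM in the other libraries. AHSP stood at 470 to 495 and 511 to 645 CPM, and the remaining erythroid markers overlapped. PTPRC was at 21.6 to 24.0 CPM in replicate 1 and 27.4 to 34.2 CPM in the other libraries. The 5 mast cell and basophil markers summed to 332 to 359 CPM in the replicate 1 libraries and to 147 to 226 CPM in the others, nearly all of it from the tryptase genes TPSAB1 and TPSB2, while CPA3 and HDC reached at most 18 and 5 counts. The 7 megakaryocyte markers summed to 34.9 to 36.2 CPM in replicate 1 and to 46.0 to 54.0 CPM in the others. Of these markers only ITGA2B separated replicate 1, at no more than 15.8 against at least 20.3 CPM. TUBB1 overlapped, at 18.26 to 22.95 CPM in replicate 1 and 18.33 to 27.57 CPM in the others. GP1BA also overlapped, at 0.844 to 0.897 and 0.310 to 0.900 CPM. PF4, PPBP, GP9 and GP6 were at 0 counts in every library. Neither the mast cell and basophil sum nor the megakaryocyte sum separated SCF from PBS libraries. In bulk RNA a change in the share of cells and a change in RNA per cell cannot be told apart, and the part of these markers in the replicate differences was not tested.

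**Figure D5:**
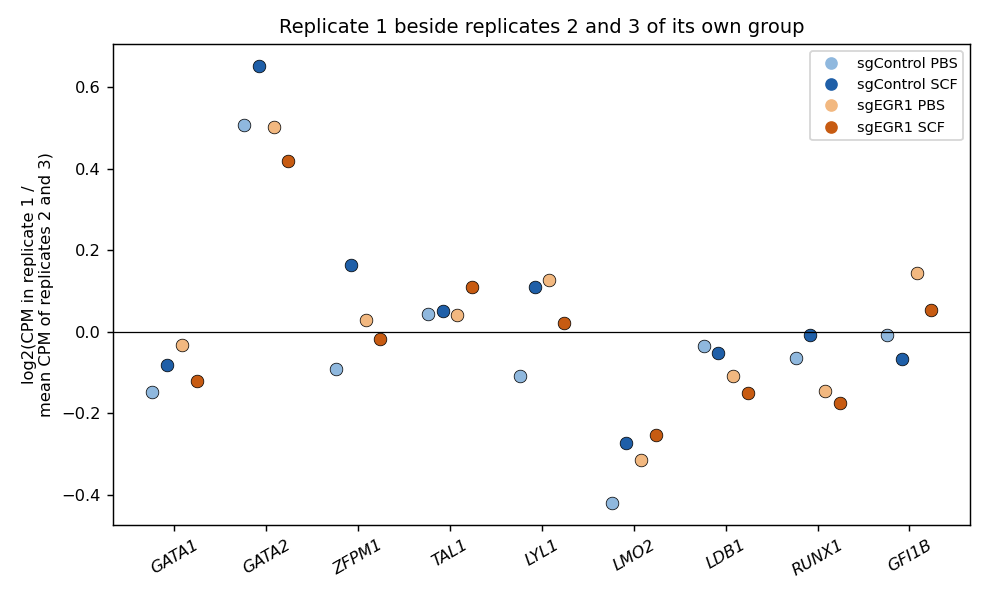
Log2 of the CPM in replicate 1 over the mean of replicates 2 and 3 of the same group, with 1 point per group. GATA2 lies above 0 and LMO2, LDB1 and GATA1 below 0 in all 4 groups.

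The wider network was described with a list of 43 partners, cofactors and related factors, of which 35 passed the filter. None was called in sgControl or sgEGR1 cells alone. In the average SCF response 3 of the 35 (1 higher, 2 lower) were called, beside the 9.03% of all genes called there. MTA2, a subunit of the NuRD deacetylase complex that binds ZFPM1, rose by 0.10 on the log2 scale (296.9 to 311 CPM after SCF and 277 to 293 after PBS, edgeR adjusted p = 0.0293). BRD3, a bromodomain protein that binds acetylated GATA1, fell by 0.18 (edgeR adjusted p = 0.0261), and TRIM33, a chromatin-bound ubiquitin ligase, fell by 0.16 (edgeR adjusted p = 0.0148). The other 32 were not called, and the median log2 fold change over the 35 was -0.03, beside 0.00 over all genes. At the ends of the list, RUNX2 (0.54, adjusted p = 0.439) and BRD2 (0.38, 0.197) had the highest values and RUNX1T1 (-0.52, 0.206) and ZFPM2 (-0.51, 0.062) the lowest, by edgeR. All 4 stood at 12.4 CPM or below in every library.

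Targets of the switch were given as 2 lists. Of 7 genes that GATA1 is known to lower as erythroid cells mature (KIT, MYC, MYB, SPI1, CD34, CCND2 and HHEX), MYC and HHEX rose in the average SCF response and none fell, where 9.03% of all genes were called (865 higher and 534 lower). Both were called in sgControl cells and MYC alone in sgEGR1 cells, where HHEX stood at 1.19 (log2 scale, edgeR adjusted p = 0.0551), and neither response was called as different between the guides. MYC, which drives growth, stood at 196 to 237 CPM after PBS and 372 to 453 CPM after SCF (log2 fold change 0.95 ± 0.0583 SE, edgeR adjusted p = 2.12e-06). HHEX, a homeobox factor of progenitors, stood at 3.51 to 8.05 and 9.70 to 15.9 CPM (1.20 ± 0.206 SE, edgeR adjusted p = 0.00351). KIT itself, a known target of GATA2 and GATA1, was at 462 to 555 CPM after PBS and 482 to 535 CPM after SCF (-0.04, edgeR adjusted p = 0.575), and SPI1 was at -0.05 (adjusted p = 0.915).

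Of 18 genes that GATA1 raises, 3 fell in the average SCF response and none rose, beside the same 9.03% of all genes. In sgControl cells 0 of the 18 were called, and in sgEGR1 cells SLC4A1 alone. SLC4A1, the anion exchanger of the red cell membrane, fell by 0.26 (1246 to 1448 CPM after PBS and 1034 to 1251 after SCF, log2 scale, edgeR adjusted p = 0.00856). PPOX, an enzyme of haem synthesis, fell by 0.16 (edgeR adjusted p = 0.00575), and EPOR, the erythropoietin receptor, fell by 0.14 (adjusted p = 0.036). The median of the 18 was -0.13. BCL2L1 and NFE2 were highest at 0.05 each (edgeR adjusted p = 0.364 and 0.689). Between the guides 0 genes of the 3 lists were called. SPI1 stands in the first and second of these lists, and KLF1 and NFE2 in the first and the third.

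Likeness to GATA2 and GATA1 was measured as Pearson's r of log2 CPM over the 12 libraries, among 11179 genes with a mean of at least 2 CPM. These libraries share treatments and replicate numbers, so r is a description. The 5 genes most like GATA2 were MAT2A, PPTC7, PSME3, FAM168B and YWHAG, with r from 0.992 to 0.986. MAT2A, PPTC7 and FAM168B stayed among the first 5 (r = 0.993 to 0.994) when the mean of each replicate number was removed. GFI1B was at r = -0.805 with GATA2 and GATA1 at -0.695. The 5 most like GATA1 were RPL13A, RAB3IL1, HAUS4, EIF3L and IL18, with r from 0.926 to 0.919, and 0 of them stayed among the first 5 after that removal.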

How the data were processed

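RNA from 12 HUDEP-2 cultures was sequenced in read pairs. The authors aligned reads to hg38 with HISAT and made a gene matrix with StringTie, and the deposited values are estimated counts per gene, all of them whole. The library kit is named differently in the labels and the methods, and use of strand in the counting is not given in the sources used here. Each column was matched to a sample by guide, treatment and replicate. The guide code SG2 was read as sgEGR1, the only targeting guide in the labels.

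Genes were filtered with filterByExpr, which kept 15492 genes that hold 99.9% of counts or more in every library. TMM factors, 1 coefficient per group and the quasi-likelihood test of edgeR 4.0.16 (R 4.3.3) gave all comparisons, after tests on simulated data. Ratios were compared by exact permutation of libraries on log2 counts with a pseudocount of 0.5. DESeq2 1.42.0, other filters and scalings, a term for replicate 1, a replicate block, left-out libraries, other pseudocounts and another gene length were tried as alternatives. Exon lengths and overlaps came from GENCODE 44, which may differ from the annotation that was counted. Guides came from the supplementary tables of the study.

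Same-numbered libraries of both guides deviated together from their group means (r of 0.103 to 0.232 after PBS and of 0.102 to 0.269 after SCF). The highest r in each treatment was that of replicate 1. Each mean holds all 3 libraries of a group, so a shift of replicate 1 alone also moves the deviations of replicates 2 and 3. Their r, of 0.102 to 0.126, therefore cannot show whether numbers 2 and 3 pair the samples for the guides. No replicates agreed within sampling noise.

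The 9 genes and the lists were chosen with earlier results of these data known. Genes named were the 9, EGR1, called or extreme genes of the lists, overlapping genes, markers and the 5 genes most like GATA2 and GATA1. The values of 1 such gene are not reported here.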

Additional observations from a re-analysis of the deposited data

How the results depend on the processing

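Of 1431 alternative fold changes of the 9 genes, 1412 stayed on the same side of the threshold, 14 lost and 5 gained a call. None of the called ones changed sign, but 86 of those called in neither fit did. In the average SCF response this held for LMO2 in 11 of 20 alternatives and for LYL1 in 9 of 20. The SCF calls of GATA2 and GFI1B in sgControl cells and on average were kept under all alternatives, and none of the 9 was called between the guides under any. In sgEGR1 cells 1 of the 9 was called with only the groups compared and 0 to 2 without single libraries. For replicate 1 against replicates 2 and 3, 2 to 5 were called without single libraries. The average ratio response with replicates 2 and 3 only was 1.27 (exact permutation p = 0.0556, the smallest possible). It was 1.28 with the replicate block (exact permutation p = 0.0312, and 0.219 adjusted over the 7 comparisons). The ratio difference between the guides changed sign in 3 alternatives after SCF, and the difference in response in 2. Counts over all genes moved more. For SCF in sgControl and sgEGR1 cells, edgeR called 1184 and 1235 genes with the replicate block, 1289 and 1326 with the replicate 1 term, 192 and 250 with only the groups compared, and 194 to 448 and 176 to 428 without single libraries, and DESeq2 called 759 and 773. The average SCF response gave 2799 genes with the block and 2868 with the term. By the residuals, SCF and PBS samples of replicate 1 deviated together, at r of 0.272 in sgControl and 0.23 in sgEGR1 cells. Those of replicates 2 and 3 did so less, at r of 0.00766 to 0.108, so the numbers as a set were not taken to pair SCF with PBS samples. The main fit holds no replicate term, and a shift of replicate 1 that both treatments share counts there as spread. For GATA2 in sgControl cells the edgeR adjusted p was 0.00705 in the main fit and 6.74e-08 with the block. The block added only TAL1 among the 9 (average adjusted p = 0.0317 by edgeR). The cause of these changes was not tested. The 95% interval of GATA2 between the guides after PBS reached 1.54-fold without a replicate term, and its adjusted p of 0.999 became 0.369 with the block at the same log2 difference of 0.16.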

Other observations

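Among the other GATA factors, chosen here after their values were seen, GATA5 was the only one counted at more than trace levels. GATA5, better known from heart and gut, had 847 to 1206 counts in each of the 12 libraries, or 11.0 to 15.8 CPM per kb of exons, beside 14.0 to 52.8 for GATA2. GATA3 had at most 6 counts in a library, GATA6 at most 17 and GATA4 none. GATA5 was not called in any of the 7 group comparisons by edgeR, and the annotation used here lists no gene whose exons overlap it.

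The first 5 genes most like GATA2 and those most like GATA1 both changed with the processing. With the mean of each replicate number removed, 3 of the 5 genes most like GATA2 were shared and ELOA entered from rank 572 (r = 0.993). For GATA1 0 of the 5 were shared and TSNAX came first (r = 0.949). The genes that left stayed near the top of the 11179, at ranks 21 and 27 for PSME3 and YWHAG in the GATA2 list and at 14 to 58 in the GATA1 list.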
